A study of Mus with 4 samples.

Results

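The circular RNA (circRNA) with the most junction reads in mouse ocular tissue came from a locus on chromosome 10 that the deposited tables class mostly as intergenic. The locus was delimited as every circRNA on chromosome 10 between positions 92000000 and 92200000, in the coordinates of the deposited files, for which the sources used here give no genome build. It held 31 of the 44073 circRNAs listed in at least 1 library. The locus was chosen by the junction reads of its leading circRNA, the most abundant intergenic one, so its high level is described here without a test. The only gene that the files name as host of a circRNA in the window is Rmst, a long noncoding RNA gene.

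Tissue came from C57BL/6J mice, either wild type or carrying a VLDLR deletion (loss of the very-low-density lipoprotein receptor). All pups, in both genotypes, had received 75% oxygen between postnatal day 7 (P7) and P12. Tissue was taken at P12, directly after the oxygen, or at P13, after return to room air, and RNA depleted of ribosomal and linear RNA was sequenced. The 4 groups were therefore wild type at P12, wild type at P13, VLDLR deletion at P12 and VLDLR deletion at P13, each with 1 library. Neither normal-air controls nor the number of animals behind a library are given in the labels, and age and the return to room air cannot be told apart.

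A circRNA forms when the splice donor at the end of a downstream exon is joined backwards to the acceptor at the start of an upstream exon, which closes the exons between them into a ring. A sequencing read across that back-spliced junction identifies the ring, and the ring has no free ends for exonucleases, so circRNAs are often long-lived. Rmst is transcribed in the developing nervous system, where its RNA is known to bind the transcription factor SOX2 and to take part in neuronal differentiation, and the neuronal repressor REST is known to hold it down. Back-spliced products of the human gene are also known.

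The libraries held 662811 (P12) and 759063 (P13) junction reads for wild type, against 299723 and 341873 for the deletion. Read names placed both wild-type libraries in 1 sequencing run and both deletion libraries in another, so the genotype cannot be told apart from the run. CircRNAs of photoreceptor marker genes took 6320 and 7276 RPM (reads for every 1000000 junction reads of a library) in the wild-type libraries against 8902 and 8579 in the deletion libraries, with 11 of 13 marker hosts listed. Rom1, a disc membrane protein gene, was among the unlisted hosts. Ganglion, amacrine and horizontal cell hosts took 23.4 to 46.1 RPM (4 of 8 listed), endothelial hosts 60.3 to 101 (4 of 6) and retinal pigment epithelium hosts 852 to 891 (6 of 8). Striated muscle hosts took 2159 to 2703 (7 of 7). Lens hosts took 614 and 732 RPM in the wild-type libraries against 2269 and 1726 in the deletion libraries, with 5 of 8 listed. In bulk tissue, fewer cells of a type and less RNA per cell cannot be told apart.

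All 31 circRNAs of the locus lay on the minus strand, so the higher coordinate of each is its acceptor and the lower one its donor. The most abundant ring was chr10:92075170-92136690, classed as intergenic. It spans 61521 bases of the genome between its back-spliced ends, and how many of those bases the spliced ring retains cannot be read from the tables. It had 6917 junction reads in wild type at P12, 8525 in wild type at P13, 2781 in the deletion at P12 and 2884 in the deletion at P13. In that order of libraries, which is kept below, the second ring, chr10:92075513-92136690, had 682, 771, 339 and 324 reads. It shares the acceptor of the first and ends 343 bases earlier at its donor. In every library the longer form thus had many times the reads of the shorter one.

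The next 3 rings by reads used the same acceptor with donors inside Rmst, and the tables class them as exonic with Rmst as host. Ring chr10:92103706-92136690 had 306, 347, 130 and 111 reads. Ring chr10:92109639-92136690 had 191, 199, 75 and 61 reads. The shortest of these, chr10:92133223-92136690, spans 3468 bases and had 70, 69, 29 and 20 reads. The order of these 3 rings was the same in all 4 libraries.

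The next rings were at the limit of what this depth resolves. Ring chr10:92083874-92136690 had 26, 20, 5 and 5 reads and ring chr10:92082757-92136690 had 20, 9, 6 and 6. Ring chr10:92082752-92136690, whose donor lies 5 bases from the previous one, had 8 and 15 reads in wild type, then 5 in the deletion at P13, and was not listed in the deletion at P12. A pair of rings joined the donors of the 2 leading rings to another acceptor, at 92109733. The one from 92075513 had 7, 17 and 4 reads and was not listed in the deletion at P13, and the one from 92075170 had 14, 4, 2 and 5. The remaining 21 circRNAs had 2 to 19 reads each over all 4 libraries, 133 together. No library lists a circRNA with fewer than 2 reads, so an unlisted ring may have had 1 read or none.

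Detection across libraries followed these read numbers. Of the 31 circRNAs, 8 were listed in all 4 libraries, 5 in 3, 5 in 2 and 13 in only 1. The number listed was 20 and 23 in wild-type tissue, against 13 and 14 in the deletion, whose libraries were shallower. Over all circRNAs, 28563 and 31208 were listed in the wild-type libraries, against 18022 and 20129 in the deletion libraries. The 13 circRNAs seen only in wild type had at most 14 reads each, and the 3 seen only in the deletion at most 4, so no difference in presence was detectable at this depth. The share of all circRNAs seen in only 1 genotype was not computed, so nothing about the locus is read from these counts.

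The class that the tables give followed the ends of Rmst. In the RefSeq annotation table for mouse, which served here only for gene names and for which positions fall inside a gene, all 14 exonic circRNAs of the locus had both ends inside Rmst. They held 1782 reads, 7.09% of the locus. All 17 intergenic ones had at least 1 end outside it, and they held 23360 reads, 92.9%. For 16 of those 17, with 23356 reads, the donor lay beyond the 3′ end of the annotated gene. For 2 of the 17, with 15 reads, the acceptor lay beyond its 5′ end, and 1 circRNA with 11 reads had both. The rule was general in these tables: 38021 of 38021 exonic circRNAs with a single matched host lay wholly inside that host. The intergenic label of the leading ring thus records that its donor is outside the annotated gene, while its acceptor is inside it.

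Intergenic rings of the locus shared splice positions with gene-hosted rings more often than other intergenic rings did. Of the 17, 11 (64.7%) had an acceptor or donor that a circRNA with a named host also used, and these held 99.8% of the intergenic reads of the locus. Outside the locus the same held for 697 of 2412 intergenic circRNAs (28.9%) and for 29.2% of their reads. This is a description, since circRNAs of 1 locus share positions and are not independent.

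Nearly all reads of the locus ran through 1 acceptor. Position 92136690 was joined to 11 different donors and took 99.3%, 99.3%, 99.6% and 99.5% of the locus reads in the 4 libraries. With 24983 reads it carried more junction reads than any other of the 25746 acceptor positions in the tables, and it ranked 19 by number of partners. The median acceptor had 1 partner, and the median among the 311 acceptors with at least 1000 reads had 5. Its leading partner, donor 92075170, held 84.5% of its reads, close to the median of 87.5% for those deep acceptors. The first place by reads follows from how the locus was chosen. The number of donors was not compared at matched depth, and deeper acceptors can reveal more rare donors. How its reads were divided did not set this acceptor apart.

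The leading donor was more one-sided. Position 92075170 also had 11 partner acceptors, rank 13 of 27289 donor positions, but 99.6% of its 21200 reads joined the main acceptor. The median leading share over the 293 donors with at least 1000 reads was 92.8%.

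**Figure D1:**
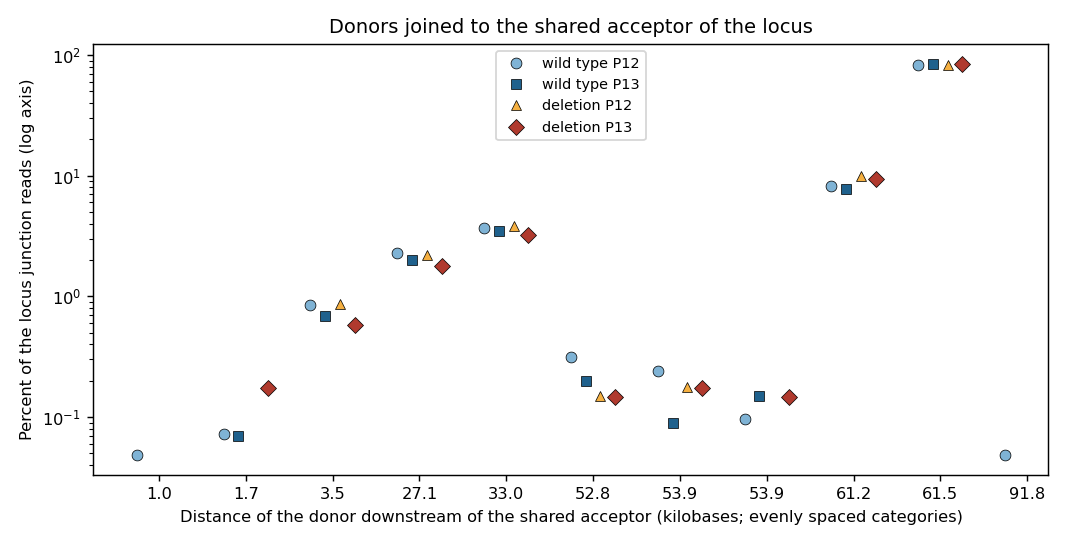
Percent of the locus junction reads (vertical log axis) held by each donor joined to the main acceptor, against the donor's distance downstream of that acceptor in kilobases (evenly spaced categories). Each symbol is 1 library, and libraries that do not list the ring have no symbol. The donors 61.5 and 61.2 kb away lead in all 4 libraries, and the donors 33.0, 27.1 and 3.5 kb away follow in that order.

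Several positions paired up as the ends of single exons would. Counting both end positions, the stretch from a listed acceptor to the donor was 95 bases long for donor 92109639, 126 for donor 92133223 and 209 for donor 92083874. The donors 92082757 and 92082752 had a common acceptor, with stretches of 219 and 224 bases. From acceptor 92075673 the stretch was 504 bases to the leading donor and 161 bases to the second one. If these positions are exon ends, the leading pair of rings share a last exon and differ in its donor, which the tables alone do not show. A ring of that last exon alone was listed once, with 2 reads in wild type at P13. In addition, an acceptor 8 bases from the main one was used by 1 ring with 16 reads over all libraries. Upstream of the main acceptor, 8 circRNAs with 44 reads in all began at other acceptors. The RefSeq table places the microRNA gene Mir1251 near the main acceptor and Mir135a-2 beyond the leading donor. No circRNA in the window carried either name as host.

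The leading ring was the most abundant circRNA of every library. It took 1.04% of all junction reads in wild type at P12 (95% exact Clopper-Pearson interval 1.02% to 1.07%) and 1.12% in wild type at P13 (1.10% to 1.15%). In the deletion it took 0.928% at P12 (0.894% to 0.963%) and 0.844% at P13 (0.813% to 0.875%). The intervals cover counting error only, and reads without molecular identifiers are not independent molecules. The wild-type libraries were each sequenced on 2 lanes, and the share was 1.06% and 1.03% in the lanes at P12 and 1.12% and 1.13% at P13. Lanes repeat the sequencing of 1 preparation and say nothing of the spread between libraries or animals.

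Its lead over the next circRNA was smaller in the deletion libraries than in the wild-type libraries. It exceeded the next circRNA 1.48-fold and 1.49-fold in the wild-type libraries, and 1.30-fold and 1.10-fold in the deletion libraries. The next circRNA was a ring of Gigyf2, a translational repressor gene, with 4686, 2142 and 2619 reads in wild type at P12 and the deletion at P12 and P13. In wild type at P13 it was a ring of Bbs9, a subunit of the ciliary BBSome, with 5739 reads. The second ring of the locus ranked 91, 89, 86 and 101, so that its place among all circRNAs moved little.

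**Figure D2:**
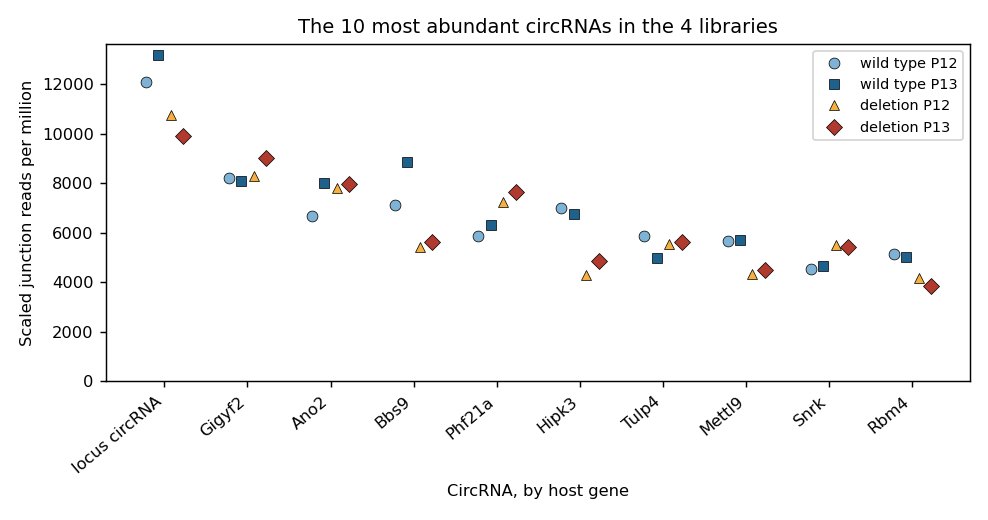
Levels of the 10 circRNAs with the most junction reads over all libraries, in junction RPM over the tested circRNAs after trimmed-mean scaling. Each symbol is 1 library, without replicates or error bars. The chromosome 10 ring stands at 12105 and 13162 in the wild-type libraries and at 10759 and 9923 in the deletion libraries, and is the highest in each.

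Summed over its 31 circRNAs, the locus had 8293, 10031, 3380 and 3438 junction reads. These were 1.25%, 1.32%, 1.13% and 1.01% of the junction reads of each library. Set beside the sums of all hosts, it ranked 2, 2, 4 and 4. The comparison is uneven, since the locus counts every ring of the window and a host only the rings assigned to it. Rings with Rmst as host had 637, 678, 251 and 216 reads. Bbs9 was first in each library, with 9686, 12449, 5062 and 5204 reads. The locus concentrated its reads in 1 ring, with 84.0% in the leading one against a median of 52.5% over the 426 hosts with at least 1000 reads. Of those hosts, 69 were more concentrated and 102 had more circRNAs. These comparisons, too, set the whole window against single hosts. Among long noncoding RNA hosts outside the locus, 84 in number, all 218 circRNAs together took 0.526% to 0.563% of a library of all junction reads. This was below the share of the whole window, intergenic rings included, in each library. The leading ones were Gm20757 with 4375 reads, E230016M11Rik with 1377 and BC046251 with 711. Counted as a host in the same way, Rmst had 1782 reads, fewer than Gm20757.

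Reads that crossed the ends of the leading ring without a back-splice were rare. The tables count such non-junction reads at the 2 positions of each ring and deposit a junction ratio, which equals 2 × junction reads divided by (2 × junction reads + non-junction reads). For the leading ring it was 0.992, 0.992, 0.989 and 0.990, from 114, 134, 63 and 58 non-junction reads. Over the 44 other circRNAs that reached 500 reads in every library, the medians were 0.906 to 0.921 and the highest values 0.982 to 0.985. None of the 44 reached the ratio of the leading ring in any of the 4 libraries. Linear RNA had been depleted before sequencing, so that the ratio describes these libraries and not the tissue.

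The deletion libraries held less of the leading ring at both ages, but the difference did not pass the test across all circRNAs. The RPM scale of the test counts only reads of tested circRNAs and uses trimmed-mean scaling. On it the leading ring stood at 12105 and 13162 in the wild-type libraries and 10759 and 9923 in those with the deletion. The ratio of the deletion library to the wild-type library was 0.889 at P12 (95% counting interval 0.850 to 0.929) and 0.754 at P13 (0.722 to 0.787). edgeR's quasi-likelihood test, with genotype and day as additive terms over the 4 libraries, gave a log2 fold change of −0.29 (SE 0.097) and an adjusted p of 0.0773. DESeq2 on the same counts gave an adjusted p of 0.0539. The unadjusted edgeR p was 0.00833.

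The call depended on the filter and on the scale. Without a filter on low counts the edgeR log2 fold change was −0.51 (adjusted p 2.38e-05), and with 10 reads asked of all 4 libraries it was −0.43 (adjusted p 3.09e-04). Fits with 1 library left out had genotype as the only term and applied the filter anew to the remaining libraries. The log2 fold change was −0.47 without the wild-type P12 library and −0.37 without the wild-type P13 library. These 2 fits tested 6142 and 6015 circRNAs, with a median of 0.01 in each. It was −0.34 without the deletion P12 library and −0.22 without the deletion P13 library. Each such fit leaves 1 library in a genotype, so only effect sizes are given. The removed library cannot be told apart from the changed filter and model. On the deposited SRPBM scale the log2 fold change was −1.75 (edgeR adjusted p 0.00130), and the single-library ratios were 0.346 and 0.255. All 6 tested rings of the locus were called lower on that scale, but so were 4773 of all 8785 tested circRNAs, with 25 called higher. The median of all tested circRNAs then moved from −0.08 to −1.54.

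Of the 6 circRNAs of the locus with enough reads to be tested (at least 10 in at least 2 libraries), 0 passed an adjusted p of 0.05 for genotype in edgeR, against 8.62% of the 8785 tested in the whole table. At an unadjusted p under 0.05 the leading ring was the only one of the 6, against 20.6% of all, and DESeq2 called none of the 6, against 3.29%. The other 25 circRNAs did not reach the filter. They held 255 reads, 1.01% of the locus, and the largest of them 41. The tested rings had a median log2 fold change of −0.33, beside −0.08 over all tested circRNAs, and 1 of the 6 was above 0.

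That one was the second ring. Its log2 fold change was 0.02 (SE 0.13, edgeR adjusted p 0.949), and its deletion to wild-type ratio was 1.10 at P12 (0.962 to 1.25) and 0.936 at P13 (0.820 to 1.07). Both counting intervals include 1. The 3 rings with donors inside Rmst had log2 fold changes of −0.29 (donor 92103706), −0.37 (donor 92109639) and −0.36 (donor 92133223), with edgeR adjusted p of 0.393, 0.326 and 0.565. The ring from donor 92083874, with 5 reads in each deletion library, stood at −1.03 (SE 0.63, edgeR adjusted p 0.395). For the summed reads of the locus, edgeR gave −0.27 (SE 0.095, adjusted p 0.0970).

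Between single libraries, 7 circRNAs of the locus had at least 20 reads in the pair of libraries compared at each age. At P12 the counting interval lay below 1 for 1 of them, the leading ring, against 14.6% of all circRNAs with that many reads. At P13 it lay below 1 for 3 of 7, against 13.7%, and these were the leading ring, the ring from donor 92103706 at 0.713 (0.570 to 0.885) and that from 92109639 at 0.683 (0.504 to 0.914). None lay above 1 at either age, against 16% and 15.7% of all. These intervals compare libraries, not genotypes. They narrow with depth, and the background was not matched for depth. Rings that share an acceptor are also not independent, so nothing about the locus is read from these counts.

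Seen beside other abundant rings, the deletion to wild-type ratio of the leading ring was in the lower part of the range. Of the 44 other circRNAs that reached 500 reads in every library, 9 were lower at P12 and 3 at P13. Their median log2 ratios were 0.16 and 0.17, where the leading ring stood at −0.17 and −0.41. Among the 9 next most abundant circRNAs, edgeR called 3 lower in the deletion, against 3.59% of all tested circRNAs. They were rings of Bbs9 (−0.52, adjusted p 0.00351), of Hipk3, a protein kinase gene known for its circRNA (−0.59, adjusted p 0.00158), and of Mettl9 (−0.36, adjusted p 0.0372). The Gigyf2 ring that followed the leading ring stood at 0.08 (adjusted p 0.693). The most abundant other intergenic ring, chr1:4163855-4231144, was higher in the deletion (0.65, edgeR adjusted p 9.35e-04). Lens and photoreceptor marker hosts were both higher in the deletion libraries, with the values given above, and their part in the difference at the leading ring was not tested.

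**Figure D3:**
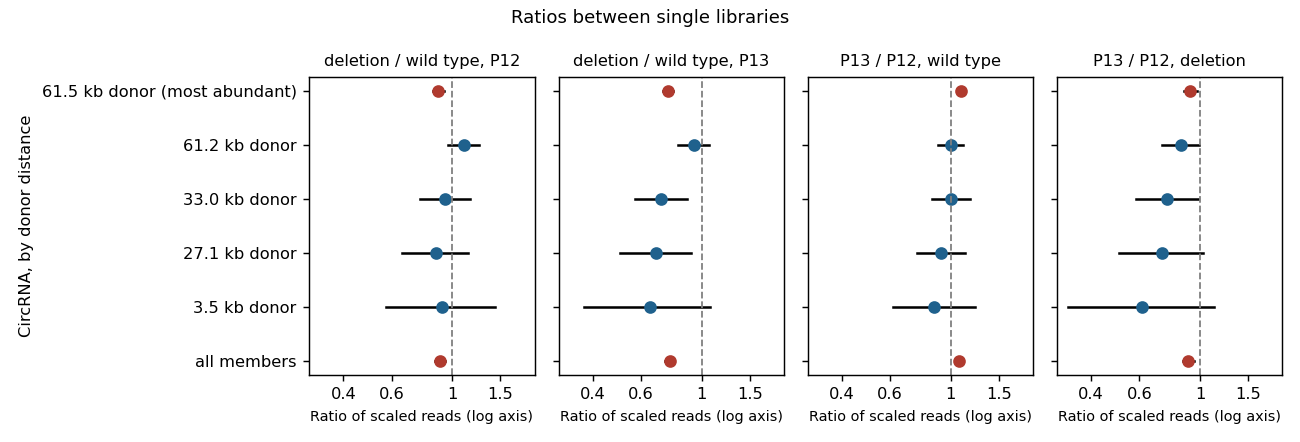
Ratios of scaled junction reads between pairs of single libraries (horizontal log axis, dashed line at 1) for the 5 rings with the most reads, by donor distance in kilobases, and for all circRNAs of the locus summed. Points are ratios and bars 95% counting intervals; the leading ring is below 1 in the deletion at both ages (0.889 and 0.754), and its P13 to P12 ratio is 1.09 in wild type against 0.922 in the deletion.

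Between P12 and P13 the leading ring differed in opposite directions in the genotypes. Its P13 to P12 ratio was 1.09 in wild type (1.05 to 1.12) and 0.922 in the deletion (0.875 to 0.972). In the additive fit these cancelled, and edgeR gave a log2 fold change for day of 0.00 (SE 0.097, adjusted p 0.999). For day, 0 of the 6 tested circRNAs passed, against 0.0228% of all 8785 (0.0114% higher and 0.0114% lower), which is 2 circRNAs. At an unadjusted p under 0.05 edgeR called none of the 6, against 3.57% of all, and DESeq2 called none of the 8785 after adjustment. The day estimates of the 6 ran from −0.43 to 0.00.

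In the pair of wild-type libraries, 9 circRNAs of the locus had at least 20 reads. The counting interval lay above 1 for the leading ring only, against 8.39% of all, and below 1 for the ring from donor 92082757, with 20 and 9 reads, against 8.35%. In the deletion pair, 5 circRNAs had at least 20 reads and 3 lay below 1, against 7.34% of all, and none above 1, against 6.76%. These were the leading ring, the second at 0.850 (0.728 to 0.993) and the ring from donor 92103706 at 0.759 (0.584 to 0.986). For the ring from donor 92109639 the interval around 0.723 reached from 0.507 to 1.03. Here, too, the background was not matched for depth and the rings share an acceptor, so the counts are description only. Among the 44 other abundant circRNAs, 30 had a lower day ratio than the leading ring in wild type, and 5 did so in the deletion.

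The leading ring held most of the locus reads in every library. The leading ring held 83.4% of the locus reads in wild type at P12 (82.6% to 84.2%), 85.0% in wild type at P13 (84.3% to 85.7%), 82.3% in the deletion at P12 (80.9% to 83.6%) and 83.9% in the deletion at P13 (82.6% to 85.1%). The deletion and wild-type intervals overlapped at each age, whereas those of the wild-type libraries did not overlap each other, nor did wild type at P13 and the deletion at P12. Rings from donors between the second donor and the acceptor took 7.66%, 6.69%, 7.28% and 6.25% of the reads at the main acceptor, lower at P13 than at P12 in both genotypes.

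The choice between the leading pair of donors differed a little by genotype. Of the reads of the 2 leading rings, the second donor took 8.97% (8.34% to 9.64%) and 8.29% (7.74% to 8.87%) in wild type, and 10.9% (9.79% to 12.0%) and 10.1% (9.08% to 11.2%) in the deletion. At each age the deletion library lay above the wild-type library with counting intervals that did not overlap. With 1 library in each group and genotype tied to the sequencing run, these intervals compare libraries, and the spread between animals is unknown.

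Non-junction reads were frequent at the internal donors of the locus, which lie within the span of the leading ring. Such reads can come from linear Rmst RNA or from the larger rings themselves, and the tables do not tell these apart. They were counted here for each ring that ends at the main acceptor, per 100 junction reads of the leading ring. The leading ring shares the acceptor and had only 58 to 134 such reads at both of its ends. At the ring from donor 92133223 there were 49.8, 50.3, 45.6 and 50.0, and at that from 92082757 there were 50.4, 52.5, 48.6 and 52.6. At donor 92083874 there were 42.6, 44.0, 45.5 and 44.5. Values at these 3 donors lay between 42.6 and 52.6 in all libraries.

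A pair of neighbouring donors had the lowest deletion to wild-type ratios at both ages. Donor 92103706 had 44.7 and 48.1 non-junction reads per 100 in wild-type tissue, against 32.1 and 31.7 in the deletion, from 3094, 4098, 893 and 914 reads. Donor 92109639 had 50.4 and 53.2 in wild-type tissue, against 34.5 and 38.3 in the deletion, from 3487, 4532, 959 and 1105 reads. The deletion to wild-type ratio of these values was 0.718 (0.658 to 0.783) at P12 and 0.659 (0.607 to 0.716) at P13 for donor 92103706, and 0.684 (0.629 to 0.744) and 0.721 (0.667 to 0.779) for donor 92109639. At donors 92133223, 92083874 and 92082757 the ratios ran from 0.915 to 1.07, the lowest being donor 92133223 at P12 (0.846 to 0.989). The second donor of the locus had 79.0, 78.6, 71.8 and 70.6 reads per 100, and the leading donor itself 1.65, 1.57, 2.27 and 2.01. The second donor was thus also lower in the deletion, at 0.909 (0.849 to 0.972) at P12 and 0.898 (0.841 to 0.958) at P13. The leading donor went the other way, at 1.37 (1.01 to 1.88) and 1.28 (0.938 to 1.75).

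A background for the values per 100 reads of the leading ring was not computed, and one is given for another quantity, non-junction reads per junction read of the same ring. On that scale the log2 deletion to wild-type ratio of non-junction reads was −0.56 and −0.52 for the ring from 92103706 and −0.51 and −0.33 for that from 92109639. Over 2188 other circRNAs the middle 50% ran from −0.52 to 0.39 at P12 and from −0.49 to 0.45 at P13. The ring from 92103706 thus lay just below the lower quartile at both ages, and that from 92109639 above it. The second ring stood at −0.44 and −0.47, lower than the ring from 92109639 at P13. The leading ring was at 0.47 and 0.37, and the ring from 92133223 at −0.17 and 0.22.

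**Figure D4:**
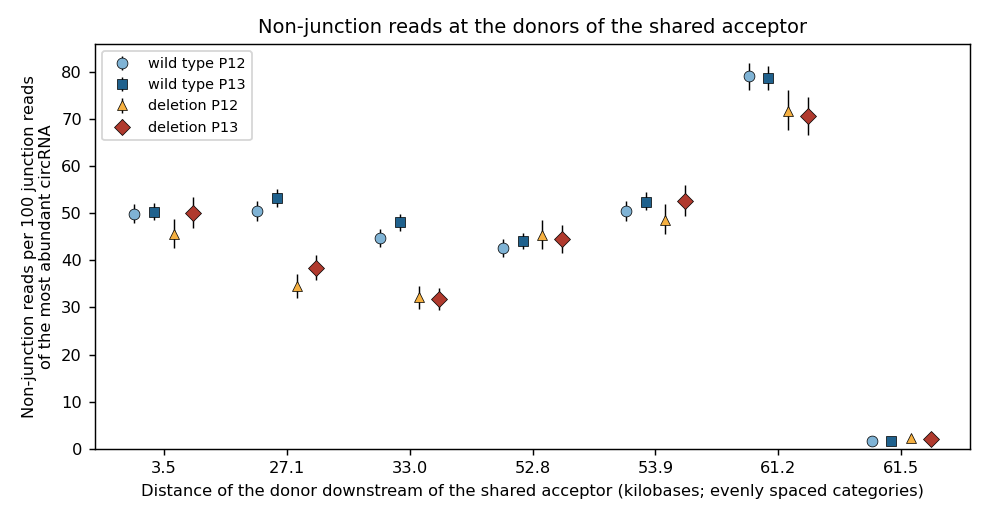
Non-junction reads per 100 junction reads of the leading ring (vertical axis) for the rings that end at the main acceptor, by donor. Each symbol is 1 library, with a bar for its 95% counting interval. The donors 33.0 and 27.1 kb from the acceptor are at 44.7 to 53.2 in the wild-type libraries and 31.7 to 38.3 in the deletion libraries, whereas the leading donor, 61.5 kb away, is at 1.57 to 2.27 in all.

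The circRNAs most like the leading ring across the 4 libraries were rings of Rpgrip1, Ano2, Rbm4, Stx6 and Nbea. Likeness was the root mean square difference in log2 RPM, each circRNA centred on its own mean, among the 44 others that reached 500 reads in every library. The closest was a ring of Rpgrip1, a gene of the photoreceptor connecting cilium, at 0.046, with 1355, 1731, 522 and 543 reads. Rings of Ano2, a calcium-activated chloride channel gene (0.052), and Rbm4, an RNA-binding protein gene (0.059), followed. The next were Stx6, a gene of vesicle fusion (0.064), and Nbea, a gene of neuronal membrane traffic (0.065). All 5 were, like the leading ring, higher in both wild-type libraries than in both deletion libraries. That shared direction follows from how they were picked, by nearness to the leading ring over these same libraries. These are descriptions over 4 points that share their libraries.

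The neighbouring gene on the same side as the main acceptor is Gm20757, a long noncoding RNA gene with 22 circRNAs in the files and 1360, 1739, 606 and 670 reads. Its most abundant ring, chr10:92257142-92272665, had 698, 908, 267 and 335 reads and a log2 fold change for genotype of −0.26 (edgeR adjusted p 0.278). The next, chr10:92257142-92285067, had 544, 711, 302 and 303 reads and stood at 0.11 (edgeR adjusted p 0.731). None of the 6 tested Gm20757 rings passed, against 8.62% of all, so nothing is read from that count. At the edge of the window, 1 Gm20757 ring with 6 reads reached across the upper limit and was left out, and the nearest ring on the lower side belonged to Apaf1 with 10 reads. The boundary of the window therefore removed no abundant ring.

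Over the chromosome around the locus, from 90000000 to 94000000, 91 other circRNAs were listed and 26 tested. edgeR called 4 lower and 0 higher in the deletion, against 3.59% and 5.03% of all, and their median log2 fold change was −0.40 beside −0.08 over all. All 4 were rings of Anks1b, a gene of a postsynaptic scaffold protein. Anks1b was also the host of most of the 26 tested rings and of 43 of the 91 listed. Neither the calls nor the median therefore describe the region apart from that gene. The strongest, chr10:90069468-90077142, had 1398, 1458, 204 and 254 reads (log2 fold change −1.50, edgeR adjusted p 1.11e-06).

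Genes tied to Rmst or to ring formation were also read as circRNA hosts. Among partners and regulators of Rmst, Rest was listed as a circRNA host, and Sox2, Hnrnpa2b1, Neurog2, Dlx1 and Hey2 were not. Its tested ring had 71, 48, 17 and 6 reads and a log2 fold change of −1.27 that did not pass (edgeR adjusted p 0.0614). Of 24 noncoding RNA hosts, 11 were listed outside the locus, and 1 of 6 tested rings was called higher in the deletion, against 5.03% of all tested circRNAs. It was from Pvt1, chr15:62107148-62107465, with 57, 55, 42 and 53 reads (0.91, edgeR adjusted p 0.0438). Of 19 genes for factors that act in ring formation or splicing, 15 were listed as hosts, and 1 of 24 tested rings was called lower, against 3.59% of all. It was from Mbnl2, a splicing regulator gene, with 262, 263, 40 and 80 reads (−1.02, edgeR adjusted p 0.0110). In none of these lists was a ring called for day. The levels of the genes' linear transcripts were not measured by these tables.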

How the data were processed

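Each of the 4 libraries has a table of back-spliced circRNAs. The deposited counts are junction reads and non-junction reads per circRNA, per the file headers, laid out as the caller CIRI writes them, with a class, host gene and strand. The authors also deposited the junction ratio, a fraction from 0 to 1, and a normalized signal (SRPBM), which equals the reads divided by 1 constant for each library (9.10 to 12.1 reads per unit). The submitters' processing notes name BWA and DESeq2. Versions, settings and the genome build were not given in any source used here. Positions are those of the files, and no sequence was read.

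A circRNA was tested if 2 or more libraries had 10 or more reads of it (8785 circRNAs) with edgeR 4.0.16 (quasi-likelihood, robust, TMM factors 0.982 to 1.017), genotype and day being additive terms. This leaves 1 residual degree of freedom, from the 4 libraries. Benjamini-Hochberg adjustment was over all tested circRNAs with a threshold of 0.05. The fit was tested on simulated data. Single libraries were compared as ratios of scaled reads with exact 95% intervals, for circRNAs with at least 20 reads in the pair, and these intervals cover counting error only. Total reads ranged from 299723 to 759063.

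Members and gene lists were chosen with earlier results of these data known. The 10 members with the most reads were named, with the 5 circRNAs nearest to the leading one, the 9 next most abundant circRNAs, and the other intergenic rings by reads. Alternatives were DESeq2 1.42.0, other scalings and filters, each term fitted alone, the SRPBM scale and leaving out each library. Fits with a library left out held only the term of interest and applied the filter anew to the remaining libraries. Gene names came from the RefSeq table of mouse genes.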

Additional observations from a re-analysis of the deposited data

Results flagged for a closer look

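4 results had opposite signs in the groups compared. The share of all circRNAs with opposite signs was not computed, so nothing is read from this count. Each group held 1 library, so the differences were not tested, and the intervals cover counting error only. The P13 to P12 log2 ratio of the leading ring, chr10:92075170-92136690, was 0.12 for wild type and −0.12 for the deletion, a difference of −0.24 (−0.33 to −0.15). For the summed reads of the locus, which consist mostly of that ring, the ratios were 0.09 and −0.14, a difference of −0.24 (−0.32 to −0.16). For ring chr10:92103706-92136690, they were 0.0005 and −0.40, a difference of −0.40 (−0.83 to 0.03). Its wild-type libraries were thus nearly equal, and its sign there carries no weight. The second ring, chr10:92075513-92136690, had a deletion to wild-type log2 ratio of 0.14 at P12 and −0.09 at P13, a difference of −0.23 (−0.50 to 0.03). The intervals of the leading ring and of the sum exclude 0, and those of the other two include it.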

How the results depend on the processing

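Of 124 alternative values, 63 kept their direction and side of the threshold (for counts and values without a test, also their size), 41 moved, 10 changed sign and 10 passed the threshold that the reported value missed. The cause was not tested except where named.

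The genotype log2 fold change of the leading ring, −0.29 as reported, was −1.75 on the SRPBM scale, −0.51 with no filter, −0.43 with 10 reads in all 4 libraries, and −0.47 to −0.22 with a library left out. It was −0.47 without wild type P12 and −0.37 without wild type P13. Fits with a library left out had genotype as the only term and applied the filter anew, so their shifts are not those of the library alone. For the summed reads, −0.27 as reported, these were −1.73, −0.49, −0.41, and −0.44 to −0.18. Without wild type P12 the sum stood at −0.44 and without wild type P13 at −0.36. Called rings of the locus numbered 6 on the SRPBM scale, 1 with no filter and 1 with 10 reads in all 4 libraries. On the SRPBM scale the median of all tested circRNAs moved from −0.08 to −1.54, and with no filter to −1.29. Calls over the table, 757 as reported (442 higher, 315 lower), were 4798 on the SRPBM scale (25 higher, 4773 lower), 289 with DESeq2 (187 higher, 102 lower), and 467 (without wild type P12; 267 higher, 200 lower) to 1398 (without deletion P13; 517 higher, 881 lower). Lower calls also outnumbered higher ones with no filter (470 against 260) and without deletion P12 (675 against 486).

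The day estimate of the leading ring, 0.0032 as reported, was −0.014 scaled by all junction reads, −0.0068 with DESeq2 size factors, −0.0051 with DESeq2, −0.0056 with 10 reads in all 4 libraries, and −0.30 to 0.20 with a library left out, negative without wild type P13 and (−0.054) without deletion P12. The sum, −0.02 as reported, was 0.062 on the SRPBM scale, 0.0082 with no filter, and −0.31 to 0.16 with a library left out, positive without wild type P12 (0.12) and without deletion P13. None of the estimates from all 4 libraries passed. With a library left out, day was the only term, the filter was applied anew, and genotype was unbalanced between the days. Those day estimates and calls therefore mix genotype with day. Their sign changes cannot be read as instability of the reported day estimate, which had genotype in the fit. Day calls over the table, 2 as reported, were 0 on the SRPBM scale, with DESeq2 and with day alone in the model, 17 with no filter, 8 with 10 reads in all 4 libraries, and 0 to 39 with a library left out (39 without wild type P12).

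The other shifts follow from a changed denominator. Over tested rings only, the leading share of the locus was 84.4% and 85.8% in wild type at P12 and P13, and 85.7% at P13 over rings listed in all 4 libraries. The locus held 1.48%, 1.57%, 1.30% and 1.16% of reads of circRNAs that passed the filter, 1.46%, 1.55%, 1.24% and 1.12% of those listed in all libraries, and 21.2%, 22.2%, 17.7% and 15.3% of intergenic reads. Without the factor of 2 the junction ratio was 0.984, 0.985, 0.978 and 0.980. On the SRPBM scale the ratios of the leading ring were 0.346 (genotype, P12), 0.255 (genotype, P13) and 1.24 (day, wild type). No paired analysis was possible because each group holds 1 library and the labels number no replicates; the reported fit already compares genotypes within day. Rings under 20 reads are limited by depth, and the design gives no spread between animals.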
